A study of Arabidopsis thaliana with 24 samples.

Results

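The genes described here are 40 nuclear loci of Arabidopsis thaliana that encode subunits of photosystem II (PSII, 13 genes), subunits of photosystem I (PSI, 13 genes), electron carriers between and after the photosystems (8 genes), subunits of the chloroplast ATP synthase (3 genes) and proteins of cyclic electron flow (3 genes). They were chosen by name and locus, and no measured value entered the rule, although earlier results of these data were known when it was made. Of these, 39 are among the 17672 genes with an H3K9ac peak in the deposited table, each with 1 peak, and PSBP2 (AT2G30790) is not listed there. H3K9ac, acetylation of lysine 9 of histone H3, was profiled by ChIP-seq in whole Columbia-0 seedlings, 2 days old, of the wild type (wt) and of pifq, the quadruple mutant that lacks PIF1, PIF3, PIF4 and PIF5. Both genotypes were grown in true darkness (D), in darkness for 47 h followed by 1 h of red light (R1h), or in continuous white light (WLc). The study has 24 samples, 18 H3K9ac libraries (3 in each of 6 groups) and 6 inputs, and the deposited values are 1 signal per bp of peak for each group with the replicates pooled. The values therefore carry no replicate spread, their depth is unknown and no difference below was tested.

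Photosystem II takes electrons from water, the cytochrome b6f complex and plastocyanin pass them on, and photosystem I uses them to reduce ferredoxin, while the proton gradient formed on the way drives the ATP synthase. The reaction centre proteins are encoded in the chloroplast, whereas the genes studied here are nuclear and their products are imported. PIFs are transcription factors that accumulate in darkness, hold back the program of light-grown seedlings and are degraded once phytochromes are activated by red light, and H3K9ac is a mark of transcribed genes that lies over their 5′ part.

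Promoter sequence is shown for 4 genes on which the results turn: PSB28, with the highest ratio of light to dark signal, PSBQ2, which was higher in dark pifq than after 1 h of red light, PETC, with the largest changes among the electron carriers, and PGR5, which was highest after 1 h of red light. Each run holds the 250 bases before the annotated start, 5′ to 3′ on the strand of the gene, read from TAIR10.1. Capitals mark 3 motifs searched on both strands, the G-box CACGTG, the PIF binding element CACATG or its reverse CATGTG, and the I-box core GATAAG or its reverse CTTATC. The motifs do not overlap in these runs.
PSB28, chr4:14149599-14149848, plus strand: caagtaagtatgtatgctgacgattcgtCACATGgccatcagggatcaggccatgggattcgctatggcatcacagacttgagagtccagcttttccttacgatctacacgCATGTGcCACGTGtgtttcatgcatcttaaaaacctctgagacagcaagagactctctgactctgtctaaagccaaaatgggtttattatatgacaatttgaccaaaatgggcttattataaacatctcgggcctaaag
PSBQ2, chr4:2673244-2673493, minus strand: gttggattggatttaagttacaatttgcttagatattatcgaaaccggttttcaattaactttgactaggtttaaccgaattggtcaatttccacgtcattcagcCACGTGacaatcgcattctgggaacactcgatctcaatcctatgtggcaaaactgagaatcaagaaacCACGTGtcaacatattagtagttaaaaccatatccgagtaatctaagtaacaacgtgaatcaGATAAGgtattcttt
PETC, chr4:1439896-1440145, plus strand: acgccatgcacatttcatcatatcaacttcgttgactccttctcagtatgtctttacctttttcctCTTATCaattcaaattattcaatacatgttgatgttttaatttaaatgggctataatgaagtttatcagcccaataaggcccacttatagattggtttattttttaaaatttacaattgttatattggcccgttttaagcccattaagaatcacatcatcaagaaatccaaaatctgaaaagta
PGR5, chr2:2081860-2082109, minus strand: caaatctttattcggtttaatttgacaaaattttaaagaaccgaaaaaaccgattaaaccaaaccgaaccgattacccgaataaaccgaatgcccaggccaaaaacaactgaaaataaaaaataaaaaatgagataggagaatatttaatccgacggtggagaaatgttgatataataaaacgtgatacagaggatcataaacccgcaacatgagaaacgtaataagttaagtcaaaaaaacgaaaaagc

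In the PSB28 run a PIF binding element begins 222 bases before the start, and another begins 139 bases before it with a G-box following at 132 bases. In PSBQ2 G-boxes begin 145 and 77 bases before the start and an I-box core at 15 bases. PETC holds 1 of the motifs, an I-box core 184 bases before the start, and the PGR5 run holds none. Over all 40 genes the G-box was in the windows of 8 (20.0%), the PIF binding element in those of 6 (15.0%) and the I-box core in those of 11 (27.5%). Among 17580 genes with an annotated start and a peak, the shares were 7.31%, 10.9% and 12.5%. The 40 include PSBP2, which has no peak and holds a G-box and an I-box core. Of the 39 with a peak, 7, 6 and 10 hold the motifs in the same order. These are matches of letters in a short window and were not tested.

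The peaks of these genes lay over the 5′ part of the gene and often over all of it. They had a median length of 1483 bp against 904 bp over all genes, and ranged from 542 bp at PSB28 to 3997 bp at PSBX. Their centre lay a median of 455 bp downstream of the annotated start, against 439 bp over all genes. The start itself was inside 28 of the 39 peaks, and 21 peaks covered at least 90% of the gene. The same peak was also entered for a neighbouring gene at 18 of the 39, and 10 peaks contained the start of another gene, which leaves 20 with neither. At those that share a peak, the signal of the gene and of its neighbour cannot be told apart.

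In dark wild type these genes stood low among all genes, after 1 h of red light near the middle, and in continuous white light high. Their median percentile among 17672 genes was 14.8 in wt D, 44.3 in wt R1h and 82.6 in wt WLc. In pifq it was 60.8 in D, 74.2 in R1h and 74.9 in WLc. In wt D 23 of the 39 were in the lowest 25% of all genes and 1 (PSB27) was in the highest 25%, whereas in wt WLc 1 (PGR5) was in the lowest 25% and 23 were in the highest. The signal was lowest in wt D for 37 of the 39, the exceptions being FNR2, lowest in wt R1h, and PGRL1B, lowest in pifq D. It was highest in wt WLc for 20, in pifq R1h for 12, in pifq WLc for 6 and in wt R1h for 1. How often each group is lowest or highest over all genes was not counted. The 39 genes were also most unlike one another in dark wild type: the highest signal among them was 7.92 times the lowest in wt D, 2.29 times in wt R1h and 2.17 times in wt WLc, against 3.03 times in pifq D. No member was at the lowest value that a column can hold.

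**Figure D1:**
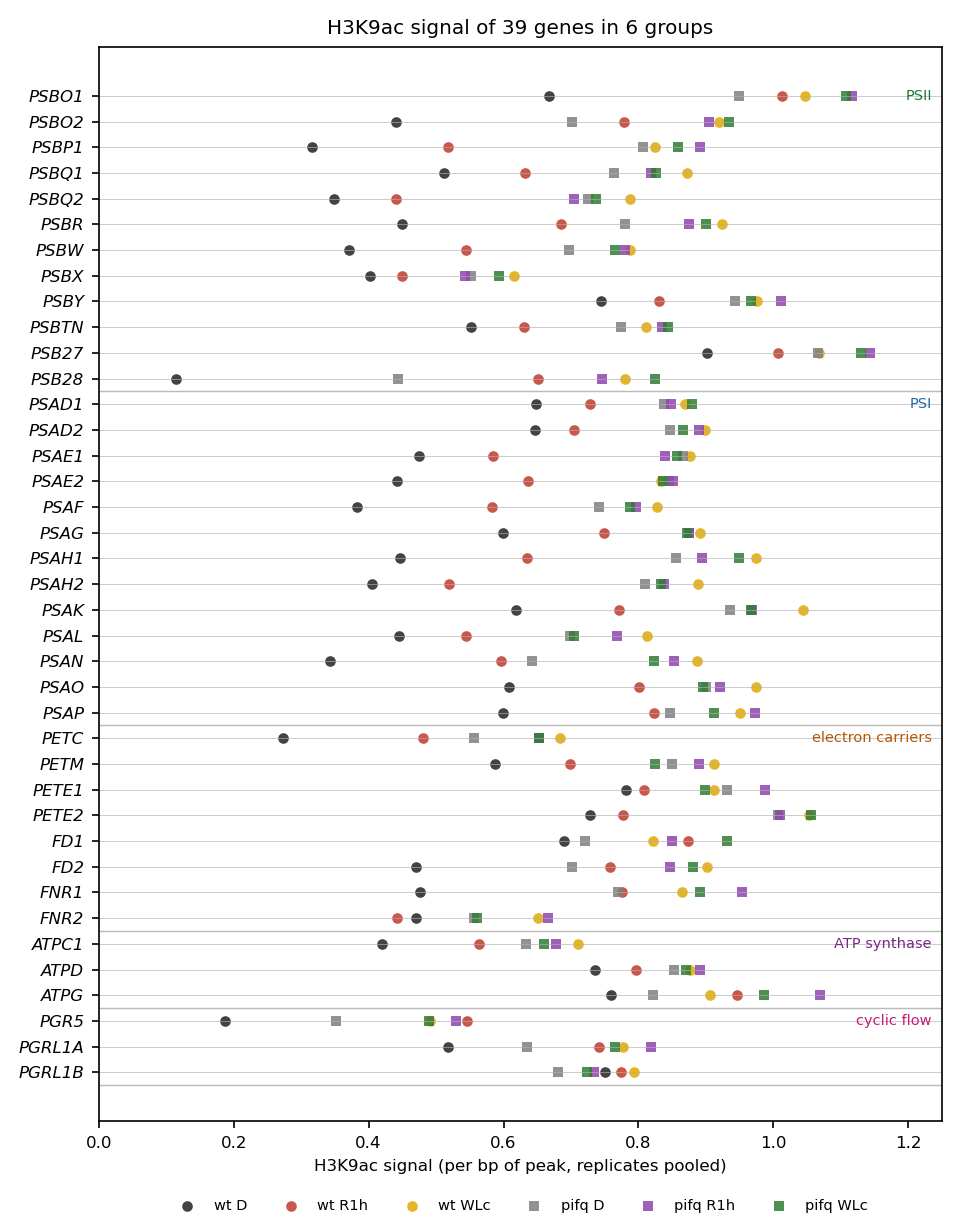
H3K9ac signal per bp of peak (x axis, linear, replicates pooled) of the 39 genes with a peak, by class, with 1 point for each of 6 groups (circles wt, squares pifq). The wt D point is the leftmost in 37 rows, and in the PSB28 row it lies at 0.114.

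**Figure D2:**
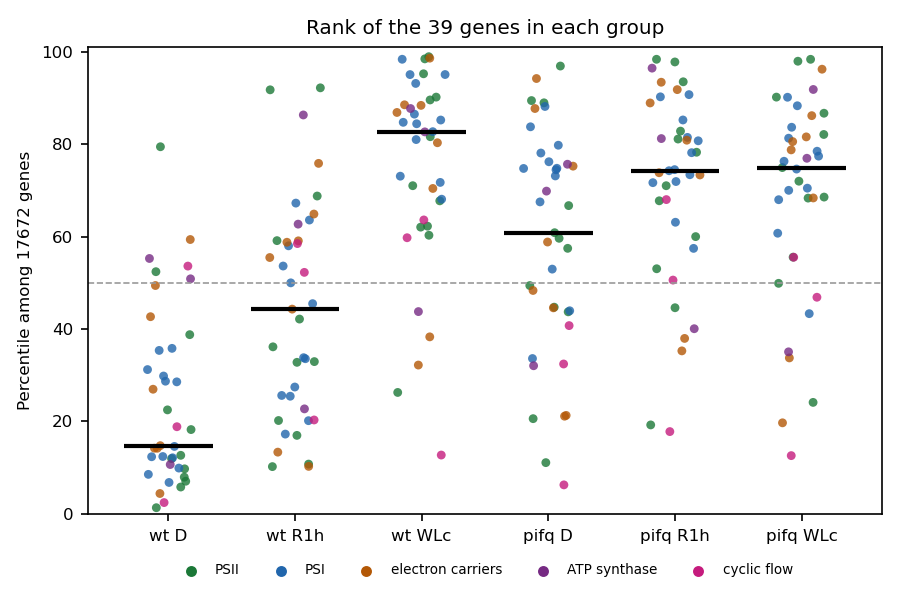
Percentile of each of the 39 genes among 17672 genes (y axis) in each group, coloured by class, with a black bar at the median. The median is at 14.8 in wt D and 82.6 in wt WLc, and the dashed line marks the 50th percentile.

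Continuous white light was compared with darkness in the wild type to ask how the mark differs between light-grown and dark-grown seedlings. All 39 genes had a higher signal in wt WLc than in wt D, 23 of them at least 1.5-fold higher and 0 at least 1.5-fold lower. Over all genes 8466 of 17672 had a higher signal, and 7.22% were at least 1.5-fold higher and 6.16% that much lower. The 1.5-fold limit, here and below, applies after the addition of a pseudocount of 0.0717 to each signal. Some genes that miss the limit have a ratio of plain signals above 1.5. The median log2 change, after addition of a pseudocount of 0.0717 to each signal, was 0.67, against -0.01 over all genes. PSI had 10 of 13 genes at least 1.5-fold higher (median 0.77) and PSII 8 of 12 (median 0.81), while the electron carriers had 3 of 8 (0.54), the ATP synthase 1 of 3 (0.24) and cyclic flow 1 of 3 (0.53). The genes nearest the limit were PSBO1 inside it at 0.60 and PETM outside it at 0.58. With a pseudocount 5 times as large 13 of the 39 reached the limit, against 3.63% of all genes. Of the 20 genes whose peak is not shared with a neighbour 12 reached it with the main pseudocount.

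Whole seedlings were used, so a mark in more cells and more of the mark in each cell cannot be told apart. Of 10 root markers 5 had a peak, and their summed signal was 3.86 in wt D, 3.80 in wt R1h, 2.75 in wt WLc and 3.01 in pifq D. Against wt D the signal was lower by 1.5-fold or more at 3 of these 5 in wt WLc, 0 in wt R1h and 2 in pifq D, and TIP2;3 went from 0.613 in wt D to 0.0998 in wt WLc. Of 6 stomatal lineage markers 3 had a peak (SPCH, TMM and STOMAGEN), with sums of 1.07, 1.73, 2.38 and 1.91 in the same groups, and it was higher by that much at 3, 2 and 3 of the 3 in wt WLc, wt R1h and pifq D. LRX1, EXPA7, COBL9, PLT1 and CASP1 of root and MUTE, FAMA and EPF2 of stomata had no peak. The part of cell makeup in the results below was not tested. A set of 11 reference genes had 0 at least 1.5-fold higher or lower in wt WLc, wt R1h or pifq D against wt D.

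After 1 h of red light, 38 of the 39 genes already had a higher signal than in wt D, against 8747 of 17672 in all. The difference reached 1.5-fold at 8 genes, with 0 lower by that much, against 3.41% higher and 0.628% lower over all genes. The 8 were PSBO2, PSBP1, PSB28, PSAN, PETC, FD2, FNR1 and PGR5, and the gene that was not higher was FNR2, at -0.08. The median log2 change was 0.31, against -0.001 over all genes. By class it was 0.38 for PSII, 0.31 for PSI, 0.27 for the electron carriers, 0.29 for the ATP synthase and 0.46 for cyclic flow. The count was 2 with the larger pseudocount (PSB28 and PGR5) and 4 after quantile normalization, against 1.12% and 2.03% of all genes. Of the 20 genes with an unshared peak 5 were at least 1.5-fold higher.

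In dark pifq, where the 4 PIFs are missing, 38 of the 39 genes had a higher signal than in dark wild type, against 8524 of 17672 in all. At least 1.5-fold higher were 15 with 0 lower by that much, against 4.54% higher and 4.33% lower over all genes. PGRL1B, at -0.13, was the exception. The median log2 change was 0.52, against -0.007 over all genes. It was 0.57 for PSI, 0.56 for PSII, 0.46 for the electron carriers, 0.26 for cyclic flow and 0.19 for the ATP synthase. Of PSI 6 of 13 genes were past the limit, of PSII 6 of 12, of the electron carriers 2 of 8, of cyclic flow 1 of 3 and of the ATP synthase 0 of 3. The count over the 39 was 6 with the larger pseudocount, against 1.38% of all genes. With the main pseudocount 6 of the 20 genes with an unshared peak were past the limit.

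The comparisons of wt WLc, wt R1h and pifq D use the same wt D column, so a low value there raises all of them. Side by side, 7 genes were at least 1.5-fold higher in all of them (PSBO2, PSBP1, PSB28, PSAN, PETC, FNR1 and PGR5), and 8 in wt WLc and pifq D but not wt R1h (PSBQ2, PSBR, PSBW, PSAE1, PSAE2, PSAF, PSAH1 and PSAH2). FD2 was past the limit in wt WLc and wt R1h, 7 genes were in wt WLc alone (PSBO1, PSBQ1, PSAK, PSAL, PSAO, PSAP and ATPC1), and 16 in no comparison. The share of all genes with each pattern was not computed, so these overlaps have no background beside them.

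**Figure D3:**
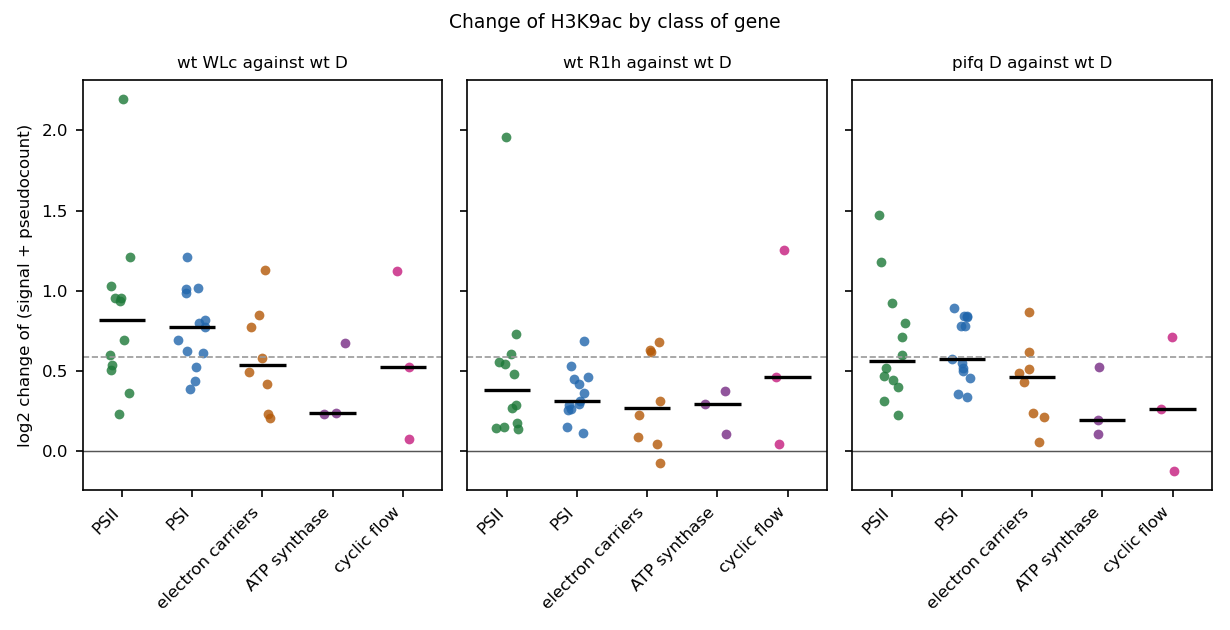
Log2 change of the signal after a pseudocount of 0.0717 (y axis) for each gene (points) by class, in wt WLc, wt R1h and pifq D against wt D, with black bars at class medians. The dashed line marks 1.5-fold, which 23, 8 and 15 of the 39 genes reach, and the highest point in each panel is PSB28.

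Among PSII genes, all 6 of the oxygen-evolving complex reached 1.5-fold in wt WLc against wt D, and so did 2 of the 6 others. Over all genes 7.22% did, and this split of PSII was not planned. With the larger pseudocount PSBO1 (0.46) and PSBQ1 (0.50) missed the limit. In plain signal PSBX, among the others, was also 1.53 times as high. PSBP1 (AT1G06680), an extrinsic protein that helps the complex retain calcium and chloride, had a signal of 0.316 in wt D, 0.517 in wt R1h, 0.825 in wt WLc, 0.806 in pifq D, 0.891 in pifq R1h and 0.859 in pifq WLc. Only the dark and red-light wild type were low, and dark pifq was close to wt WLc. Its log2 changes against wt D were 1.21 in wt WLc, 0.60 in wt R1h and 1.18 in pifq D. PSBR, which helps assemble the complex, went from 0.449 in wt D to 0.924 in wt WLc and 0.780 in pifq D.

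The PSBQ genes encode an extrinsic subunit that stabilises the oxygen-evolving complex. PSBQ2 (AT4G05180) had 0.349 in wt D, 0.441 in wt R1h, 0.788 in wt WLc, 0.725 in pifq D, 0.704 in pifq R1h and 0.737 in pifq WLc. The value after 1 h of red light was above that of darkness and below those of the other groups, and the pifq values lay together whatever the light. Its log2 change was 1.03 in wt WLc, 0.29 in wt R1h and 0.92 in pifq D. PSBQ1 (AT4G21280) had 0.511, 0.632 and 0.871 in wt D, R1h and WLc, and 0.764, 0.818 and 0.826 in pifq in the same order. Its wt D value was 1.47 times that of PSBQ2, its wt WLc value 1.11 times.

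PSBO, the manganese-stabilising protein, also has a pair of genes. PSBO1 (AT5G66570) had 0.667 in wt D, 1.01 in wt R1h, 1.05 in wt WLc, 0.949 in pifq D, 1.12 in pifq R1h and 1.11 in pifq WLc. PSBO2 (AT3G50820) had 0.440, 0.778 and 0.920 in wt and 0.702, 0.904 and 0.934 in pifq. Both were higher after 1 h of red light than in dark pifq, unlike PSBP1, PSBQ1, PSBQ2 and PSBR. PSBO1 was the higher copy in all 6 groups, by 1.52 times in wt D and 1.14 times in wt WLc.

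PSB28 (AT4G28660), a factor that takes part in PSII assembly, was the gene with the largest log2 change in each comparison with wt D. Its peak, chr4:14149979-14150521, lies inside the gene (chr4:14149849-14151163, plus strand), begins 130 bp after the start and is shared with no neighbour. The signal was 0.114 in wt D, 0.651 in wt R1h, 0.780 in wt WLc, 0.444 in pifq D, 0.746 in pifq R1h and 0.824 in pifq WLc. Dark wild type was far below the other groups, at percentile 1.35 of all genes, and dark pifq lay between it and the light samples. The log2 changes were 2.198 in wt WLc, 1.96 in wt R1h and 1.47 in pifq D. With the pseudocount it was the only one of the 39 that reached 1.5-fold in pifq R1h against pifq D (0.67) and in pifq WLc against pifq D (0.80). In plain signal PGR5 was also 1.51 times as high in pifq R1h as in pifq D. Without a pseudocount the change of PSB28 in wt WLc was 2.78, and with the larger one 1.27.

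Of the other PSII genes, PSBW (AT2G30570), a small membrane subunit that stabilises PSII antenna supercomplexes, had 0.371 in wt D, 0.545 in wt R1h, 0.787 in wt WLc, 0.697 in pifq D, 0.780 in pifq R1h and 0.765 in pifq WLc. Its log2 change in wt WLc, 0.96, was among the 4 largest of the class. The smallest changes were at genes that were already high in the dark. PSB27 (AT1G03600), a luminal assembly and repair factor, had 0.901, 1.01 and 1.07 in wt D, R1h and WLc and 1.07, 1.14 and 1.13 in pifq. PSBY (AT1G67740), a small membrane subunit, had 0.745, 0.831 and 0.976 in wt and 0.943, 1.01 and 0.967 in pifq. The log2 changes in wt WLc were 0.23 for PSB27 and 0.36 for PSBY, and the small subunit genes PSBX and PSBTN lay at 0.54 and 0.50.

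PSI genes covered a narrower range of changes than PSII genes. Their log2 changes in wt WLc ran from 0.38 to 1.21, against 0.23 to 2.198 for PSII. The upper end of PSII is PSB28 alone, and the next PSII gene, PSBP1, was at 1.21. PSAN (AT5G64040), a luminal subunit near the plastocyanin docking site, had 0.343 in wt D, 0.597 in wt R1h, 0.887 in wt WLc, 0.642 in pifq D, 0.853 in pifq R1h and 0.823 in pifq WLc. With the pseudocount it was the only PSI gene past 1.5-fold after 1 h of red light, at 0.69. In plain signal PSAF was also 1.52 times as high in wt R1h as in wt D. PSAF (AT1G31330), which binds plastocyanin on the luminal side, had 0.383, 0.583 and 0.827 in wt D, R1h and WLc and 0.741, 0.796 and 0.788 in pifq. Its value after 1 h of red light lay between those of darkness and white light, and its changes were 0.98 in wt WLc and 0.84 in pifq D.

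PSAH, with PSAL and PSAO, forms the side of PSI where mobile light-harvesting complex docks. PSAH1 (AT3G16140) had 0.446 in wt D, 0.635 in wt R1h, 0.974 in wt WLc, 0.855 in pifq D, 0.894 in pifq R1h and 0.948 in pifq WLc. PSAH2 (AT1G52230) had 0.405, 0.519 and 0.889 in wt and 0.810, 0.838 and 0.834 in pifq. Both genes changed by 1.01 on the log2 scale in wt WLc. In the direct comparison wt R1h lay below pifq D at both, by -0.39 for PSAH1 and -0.58 for PSAH2. Neither was at 1.5-fold after the pseudocount, although the plain signal of PSAH2 in wt R1h was 0.641 times that in pifq D. PSAL and PSAO, on the same side, had changes of 0.77 and 0.62 in wt WLc.

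PSAD and PSAE form the stromal ridge where ferredoxin docks, and they differed from each other while their copies did not differ by much. PSAD1 (AT4G02770) had 0.649 in wt D, 0.729 in wt R1h, 0.868 in wt WLc, 0.839 in pifq D, 0.848 in pifq R1h and 0.879 in pifq WLc. PSAD2 (AT1G03130) had 0.646, 0.704 and 0.899 in wt and 0.848, 0.889 and 0.867 in pifq. These had the smallest changes of PSI in wt WLc, 0.38 and 0.43. The PSAD2 peak is 3898 bp long at a gene of 956 bp and holds the starts of 2 other genes. The PSAD1 peak and both PSAE peaks each hold the start of 1 other gene. The difference between PSAD and PSAE therefore cannot be told apart from the signal of neighbours. PSAE1 (AT4G28750) had 0.475, 0.584 and 0.877 in wt and 0.866, 0.840 and 0.857 in pifq. PSAE2 (AT2G20260) had 0.442, 0.636 and 0.833 in wt and 0.846, 0.852 and 0.836 in pifq. At both PSAE genes the signals in dark pifq and in wt WLc were close, and light changed pifq by at most 0.04 on the log2 scale. The remaining PSI genes, PSAG and PSAK, which bind antenna, and PSAP, also known as CURT1B and linked to thylakoid curvature, had changes of 0.52, 0.69 and 0.61 in wt WLc.

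Electron carriers ran from 0.20 (PETE1) to 1.13 (PETC) in wt WLc, and the next below PETC was FD2 at 0.84. PETC (AT4G03280), the Rieske iron-sulfur protein of cytochrome b6f, had 0.274 in wt D, 0.481 in wt R1h, 0.684 in wt WLc, 0.557 in pifq D, 0.652 in pifq R1h and 0.653 in pifq WLc. It had the largest changes of the class, 1.13 in wt WLc, 0.68 in wt R1h and 0.86 in pifq D. PETM (AT2G26500), a small subunit of the same complex, had 0.587, 0.698 and 0.912 in wt and 0.850, 0.890 and 0.825 in pifq, and its change in wt WLc was 0.58.

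The PETE genes encode plastocyanin, the copper protein that carries electrons to PSI. PETE1 (AT1G76100) had 0.782 in wt D, 0.808 in wt R1h, 0.912 in wt WLc, 0.932 in pifq D, 0.987 in pifq R1h and 0.898 in pifq WLc. PETE2 (AT1G20340) had 0.728, 0.778 and 1.05 in wt and 1.01, 1.01 and 1.06 in pifq. Red light for 1 h left both close to the dark value, with log2 changes of 0.04 and 0.09, and both were higher in dark pifq than in red-light wild type. In wt WLc the changes were 0.20 and 0.49, neither at 1.5-fold.

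FD encodes ferredoxin, the acceptor of PSI, and FNR the reductase that passes its electrons to NADP. FD2 (AT1G60950) had 0.470 in wt D, 0.758 in wt R1h, 0.901 in wt WLc, 0.701 in pifq D, 0.847 in pifq R1h and 0.880 in pifq WLc. FD1 (AT1G10960) had 0.689, 0.873 and 0.822 in wt and 0.720, 0.850 and 0.931 in pifq. In the dark FD1 was 1.47 times FD2, and FD1 was 1 of 3 genes with a higher signal after 1 h of red light than in white light. Its change in dark pifq was 0.06, against 0.51 for FD2.

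FNR1 (AT5G66190) had 0.477 in wt D, 0.776 in wt R1h, 0.865 in wt WLc, 0.770 in pifq D, 0.954 in pifq R1h and 0.892 in pifq WLc. FNR2 (AT1G20020) had 0.470, 0.442 and 0.652 in wt and 0.556, 0.666 and 0.561 in pifq. The copies were alike in wt D, where FNR1 was 1.01 times FNR2, and apart in wt R1h, where it was 1.75 times FNR2. This was the largest gap between copies in the change after 1 h of red light, 0.70 on the log2 scale.

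Of the ATP synthase genes, ATPD and ATPG had smaller changes in wt WLc than most photosystem genes, while in wt R1h the class median was close to that of PSI. ATPC1 (AT4G04640), the gamma subunit that carries the redox switch of the enzyme, had 0.419 in wt D, 0.564 in wt R1h, 0.710 in wt WLc, 0.633 in pifq D, 0.678 in pifq R1h and 0.660 in pifq WLc. ATPD (AT4G09650), the delta subunit, had 0.736, 0.797 and 0.876 in wt and 0.852, 0.892 and 0.870 in pifq. ATPG (AT4G32260), a stalk subunit, had 0.759, 0.947 and 0.907 in wt and 0.822, 1.07 and 0.986 in pifq. ATPC1 was the lowest of these in every group and had the largest change, 0.67 in wt WLc, against 0.23 for ATPD and 0.24 for ATPG.

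PGR5 and PGRL1 return electrons from ferredoxin to the plastoquinone pool. PGR5 (AT2G05620) had 0.187 in wt D, 0.546 in wt R1h, 0.491 in wt WLc, 0.352 in pifq D, 0.530 in pifq R1h and 0.490 in pifq WLc. It was the only one of the 39 with its highest signal in wt R1h, and the red and white light values were alike in both genotypes. Its log2 changes were 1.26 in wt R1h, 1.12 in wt WLc and 0.71 in pifq D, and in pifq R1h against pifq D it was 0.51. PGRL1A (AT4G22890) had 0.518, 0.741 and 0.777 in wt and 0.635, 0.819 and 0.765 in pifq. PGRL1B (AT4G11960) had 0.751, 0.774 and 0.794 in wt and 0.681, 0.734 and 0.723 in pifq, and all its changes against wt D lay between -0.13 and 0.07.

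Of the 10 gene pairs with the same protein name, 9 had a peak at both copies. Coding sequences in these 9 pairs were 60.3% (PETE) to 87.0% (PSAH) identical with gaps counted as differences, and 75% (PETE) to 88.0% (PSAD) over aligned bases, and no run of 50 bases was shared between their peaks. In the change of wt WLc against wt D the copies lay furthest apart for FD (0.61 on the log2 scale, FD2 higher) and PGRL1 (0.45, PGRL1A higher), and closest for PSAH, at 0.00. The copies of PSAD, PSAE, PSAH and PETE stayed within 1.22 times of each other in all 6 groups. Every PSAD, PSAE, PSAH and FD peak, and that of PETE1, is also entered for a neighbouring gene or holds its start. Likeness or distance of these copies therefore cannot be told apart from the signal of neighbours. The peaks of both PGRL1 genes are unshared.

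**Figure D4:**
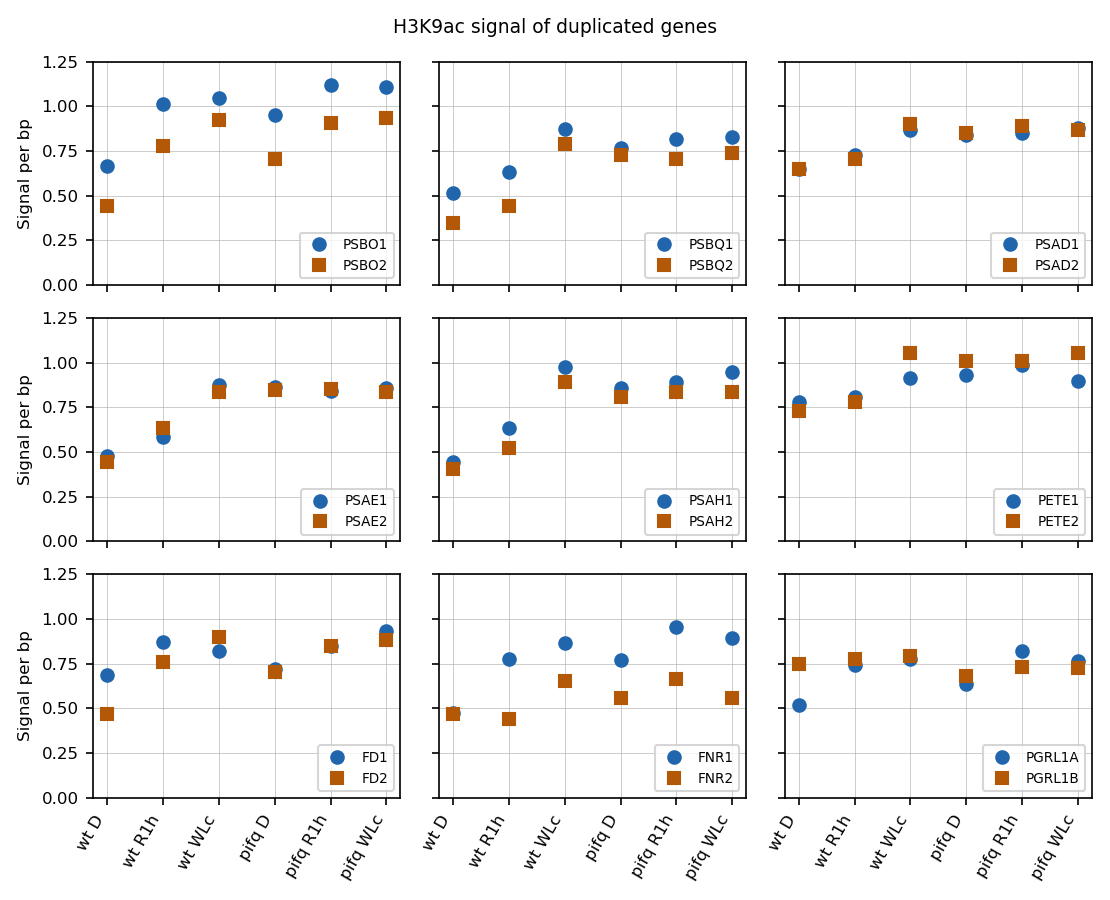
H3K9ac signal per bp of peak (y axis, linear, replicates pooled) of both copies of 9 duplicated genes in the 6 groups (x axis). The copies of PSAD, PSAE, PSAH and PETE lie close together throughout, FD1 lies above FD2 in wt D but below it in wt WLc, and FNR1 leaves FNR2 in wt R1h.

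Red-light wild type and dark pifq can be set against each other directly, a comparison that does not use wt D and was added after the data were seen. Of the 39 genes 10 had a higher signal in wt R1h and 29 in pifq D, with a median log2 difference of -0.19, against 9156 genes higher and 8516 lower of 17672 in all and a median of 0.01. Over the 20 genes with an unshared peak the median was -0.11. All 13 PSI genes were lower in wt R1h than in pifq D, by -0.58 (PSAH2) to -0.04 (PSAP). Among them only PSAK, PSAL and PSAP have an unshared peak. All 3 cyclic flow genes were higher in wt R1h, by 0.17 to 0.54, and none of their peaks is shared. The classes between these were mixed, with 3 of 12 PSII genes (PSBO1, PSBO2 and PSB28), 3 of 8 electron carriers (FD1, FD2 and FNR1) and 1 of 3 ATP synthase genes (ATPG) higher in wt R1h. Most differences were small: 0 of the 39 were at least 1.5-fold higher in wt R1h and 1 was lower by that much (PSBQ2, at -0.64), against 4.65% and 2.34% of all genes. PSBP1 and PSAH2, both at -0.58, fell just short of the limit, and under 4 of the alternatives 3 genes were lower by 1.5-fold. With the larger pseudocount 0 were, and 0 were lower by 2-fold.

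**Figure D5:**
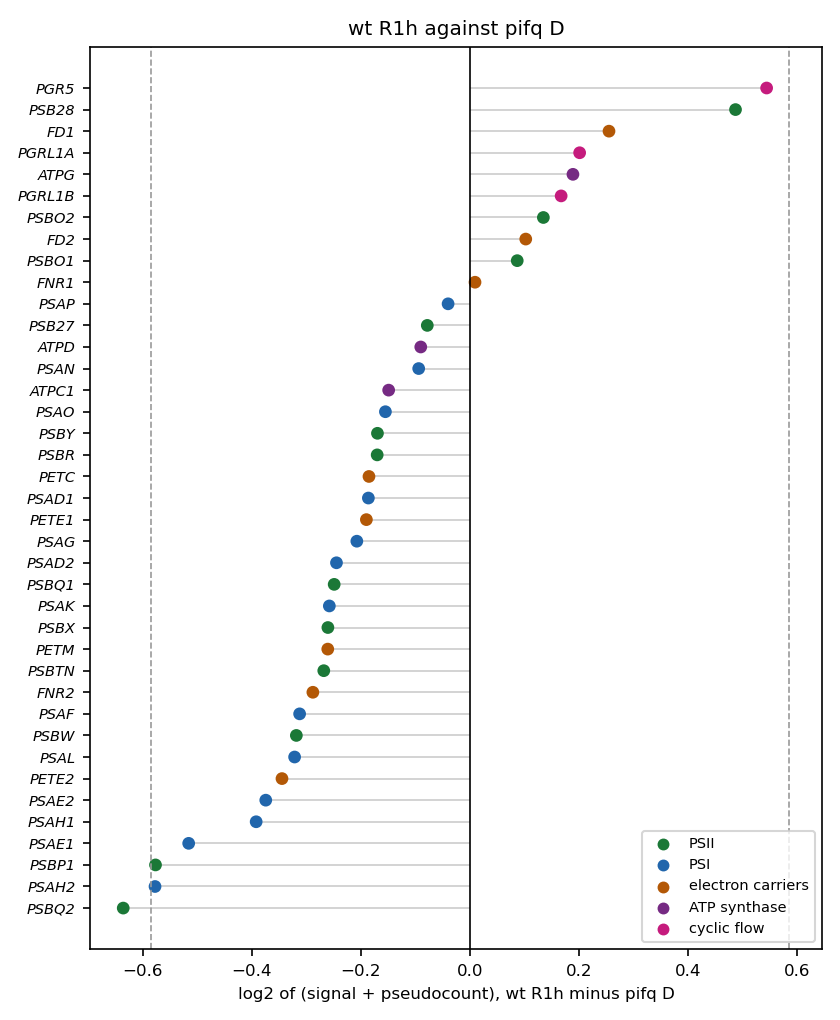
Log2 difference of the signal after a pseudocount of 0.0717, wt R1h minus pifq D (x axis), for the 39 genes in order of that difference, coloured by class. All 13 PSI genes lie left of 0 and all 3 cyclic flow genes right of it, and the dashed lines mark 1.5-fold.

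Light-treated pifq was compared with dark pifq in the same way. In pifq R1h against pifq D 1 of the 39 was at least 1.5-fold higher and 0 lower, against 1.41% and 0.368% of all genes, and in pifq WLc against pifq D 1 of 39 was higher and 0 lower, against 3.08% and 0.985% of all genes. These shares are near the background. By sign, 35 and 33 of the 39 were above 0, against 8706 and 9146 of 17672 genes, and the median log2 changes were 0.10 and 0.08. For PSI they were 0.05 and 0.04, whereas for cyclic flow they were 0.33 and 0.24. Genes with a change of at least 0.30 in pifq R1h against pifq D were PSB28, PGR5, PSAN, ATPG, PSBO2 and PGRL1A.

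Between genotypes in the same light, the signals were close in white light and further apart in red light. In pifq WLc against wt WLc all 39 lay between -0.19 and 0.17, with a median of -0.03 and 0 at least 1.5-fold higher or lower, against 1.02% higher and 0.187% lower of all genes. In pifq R1h against wt R1h 36 of the 39 were higher in pifq, with a median of 0.27. Over all genes 8547 of 17672 were higher, with a median of -0.007. Past 1.5-fold were 3 (PSBP1, PSBQ2 and PSAH2) with 0 lower by that much, against 2.35% and 3.58% of all genes. The 3 that were not higher were FD1, PGR5 and PGRL1B, at -0.04, -0.04 and -0.07. Of the 20 genes with an unshared peak 1 was past 1.5-fold.

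Neighbouring parts of the photosynthetic apparatus are given as counts for comparison. Of 21 light-harvesting antenna genes 13 reached 1.5-fold in wt WLc against wt D (median log2 change 1.32), 11 in wt R1h (0.63) and 13 in pifq D (0.84). Of 17 genes of the chloroplast NDH complex, another route of cyclic flow, the counts were 9 (0.61), 6 (0.34) and 7 (0.36). Of 20 genes for assembly factors of the thylakoid complexes they were 4 (0.25), 1 (0.14) and 0 (0.14). None of these genes was at least 1.5-fold lower in those comparisons. The photosystem and electron transport genes had medians of 0.67, 0.31 and 0.52 in the same order, below the antenna and above the assembly factors in each, and no test of that order was possible.

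Within the 39, the 7 genes with a G-box in the window (PSBQ1, PSBQ2, PSBTN, PSB28, PSAE2, PSAH2 and ATPD) had median log2 changes of 0.82 in wt WLc, 0.29 in wt R1h and 0.84 in pifq D. The 32 without it had 0.62, 0.34 and 0.50. The 7 ran from 0.19 to 1.47 in pifq D, so genes with the same letters in the window had both small and large changes. At least 1.5-fold higher were 5, 1 and 4 of the 7 with a G-box, and 18, 7 and 11 of the 32 without it, in the same order. For the PIF binding element the counts were 1, 1 and 1 of 6 with it (PSB28 each time) and 22, 7 and 14 of 33 without it. For the I-box core they were 6, 2 and 5 of 10 with it and 17, 6 and 10 of 29 without it. Over all genes 7.22%, 3.41% and 4.54% were that much higher, and no difference between genes with and without a motif was tested.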

How the data were processed

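The authors aligned single-end reads with Bowtie2 (TAIR9 in the methods, TAIR10 in the submitters' processing notes, the same nuclear sequence), used BayesPeak to find enriched regions and DiffBind to quantify these, and assigned regions to genes by the nearest start. The deposited table holds a signal per bp of peak, 1 pooled value per peak and group. How replicates were combined and groups scaled is not given in the sources used here, and inputs were not analysed here. It has 19435 entries for 17319 distinct peaks, so some peaks are entered for more than 1 gene (20.8% of entries), and 99.7% of entries with an annotated gene overlap that gene in TAIR10.1.

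A gene was represented by its peak with the highest mean. Log2 changes used a pseudocount of 0.0717 (0.1 of the median signal), and a gene was counted at 1.5-fold after its addition. Scripts ran in Python 3.11.15 with pandas 2.3.3, numpy 2.4.6, Biopython 1.88 and matplotlib 3.10.9 and were tested on simulated data. Values per library were planned for a test, and since columns are pooled a description took its place. Members and lists were chosen with earlier results of these data known. All 6 values are given for duplicated genes, the ATP synthase genes, PGR5, PETC, PETM and the 4 largest and 2 smallest changes of PSII and PSI in wt WLc. Promoters were read from the RefSeq TAIR10.1 genome, and identity between copies was computed on coding sequence in place of protein. Genes of the same name could share reads, which was checked by shared runs of 50 bases. Alternatives covered pseudocounts, scalings, limits, low-signal filters, the choice of peak and shared peaks.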

Additional observations from a re-analysis of the deposited data

How the results depend on the processing

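No direction of a summary value reversed under any alternative, and the values below are those that moved by over 1.5 times for a count or over 0.1 for a median. With a pseudocount of 0.5 of the median signal, the genes at least 1.5-fold higher were 13 in wt WLc (median 0.46), 2 in wt R1h and 6 in pifq D (median 0.37) against wt D, 0 in pifq R1h and 0 in pifq WLc against pifq D, and 0 in pifq R1h against wt R1h. The shares of all genes at that setting were 3.63%, 1.12%, 1.38%, 0.43%, 1.09% and 0.47%, in the same order. With a 2-fold limit the same counts were 8, 2, 2, 0, 0 and 0. The shares of all genes were then 3.16%, 1.18%, 1.52%, 0.39%, 1.03% and 0.504%. Quantile normalization gave 4 in wt R1h against wt D, against 2.03% of all genes. With a pseudocount of 0.01 of the median, wt R1h against pifq D had 1 gene higher. The genes at least 1.5-fold lower in that comparison were 3 in place of 1 with a pseudocount of 0.01 of the median, with columns scaled to the reference genes, with signal times length and with no pseudocount. They were 0 with a pseudocount of 0.5 of the median and 0 with a 2-fold limit. Alternatives chosen after seeing the data were no pseudocount, with 2 genes in pifq R1h against pifq D and 1 in wt R1h against pifq D, and leaving out genes with a shared peak, with 12 in wt WLc, 5 in wt R1h and 6 in pifq D against wt D and 1 in pifq R1h against wt R1h, of 20 genes. The smaller counts of the last follow in part from fewer genes. The other 146 summary values under an alternative stayed within those limits. No paired analysis was possible because the deposited columns pool the replicates, and for the same reason no replicate could be left out. Depth per library is unknown, so the precision of a single signal cannot be given.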
